A study of Homo sapiens with 16 samples.

Results

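Azacitidine (AZA) was compared with vehicle in KG1a, an established and immature human acute myeloid leukaemia cell line. The arrays were chosen by the cell line given in the labels, which made 4 of the 16 arrays of the study: 2 with 0.5 µM AZA and 2 with vehicle. Cells of both arms grew in a SILAC medium with unlabelled (light) lysine and arginine. They received AZA or the DMSO vehicle on each of 3 days, then grew for 4 days without drug, and RNA came from frozen pellets. The same 2 arms, again with 2 arrays each, were run in AML-193, HNT-34 and HL60, which serve here to show where KG1a differed. Transcripts were measured on Affymetrix U133 Plus 2.0 arrays, and the design text gives the control of DNA methylation under AZA as the question. KG1a is a single line, and nothing in the labels shows that the 2 arrays of an arm are separate cultures. The p-values therefore reflect the spread between these samples alone, and that spread may be technical.

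AZA is a cytidine analogue that cells build into RNA and, after reduction, into DNA, where it traps DNA methyltransferases such as DNMT1. Methylation is then lost over rounds of replication, and genes that were held silent by it can be transcribed. In cancer cells AZA is known to bring back germline genes that methylation had silenced. Eosinophils, basophils and mast cells arise from CD34-positive progenitors, and the genes of their granules are switched on late in that development.

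All values below are log2 signals per gene, where 1 unit is a doubling, and each change is AZA minus vehicle with its standard error from limma, at 2 arrays per arm. A gene was called at an adjusted p under 0.05 over the 14049 genes tested. Array signals flatten near the background, so changes of dim genes are understated, and signals of different genes cannot be set against each other. In bulk RNA, more cells of a type and more RNA per cell cannot be told apart. CD34, the stem and progenitor antigen of the line, was bright, at 12.42 and 12.45 with AZA and 12.46 and 12.64 with vehicle. CD7, a T lineage antigen that some myeloid leukaemias carry, was dim, at 6.92 and 6.82 with AZA against 6.40 and 6.59 with vehicle, where the array median is 6.73. The monocyte antigen genes CD14 and CD163 and the epithelial gene EPCAM lay below the array median on all 4 arrays. The AZA arrays correlated with each other at r = 0.998 across genes, the vehicle arrays at 0.995, and AZA with vehicle arrays at 0.988 to 0.989 (genes are not independent replicates). The median difference between the arrays of an arm was 0.0665 with AZA and 0.121 with vehicle, so the vehicle pair was the looser. The 3′ minus 5′ signal of the control probe sets, which grows as RNA degrades, was 0.0596 and 0.0577 with AZA and 0.122 and -0.0608 with vehicle, in a range of -0.111 to 1.59 over the 16 arrays.

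After AZA, 921 genes were higher in KG1a (6.56% of those tested) and 472 were lower (3.36%), 1393 in all (9.92%). Of these, 132 rose at least 2-fold (0.94%) and 10 fell at least 2-fold (0.0712%). The median change over all genes was 0.02. The AZA and vehicle arrays did not overlap for 52.3% of all genes, so non-overlap by itself says little with 2 arrays per arm. When each array was centred on the median of the genes tested, 789 were higher and 622 lower. The counts leaned on single arrays: 496 were higher and 202 lower without AZA array 1, 510 and 178 without AZA array 2, 631 and 246 without vehicle array 1, and 798 and 440 without vehicle array 2. The largest changes did not lose their calls. All 20 of the largest rises and all 12 of the largest falls kept call and direction in every alternative run that tested them at the same threshold. Their sizes varied, from -1.71 to -0.52 for RBPMS and from 1.52 to 3.51 for ZNF595. The falls of OLMALINC (-0.99) and SLC2A5 (-0.96) are under 2-fold and would be lost at a 2-fold minimum. In the main limma fit the adjusted p-values of these genes were at most 9.94e-06 for the rises and 0.00186 for the falls. For every KG1a list count of genes called with AZA against vehicle below, 6.56% higher and 3.36% lower are the background. In AML-193 20.7% of all genes were higher and 20.2% lower, in HNT-34 15.4% and 14.8%, and in HL60 25.2% and 16%.

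**Figure D1:**
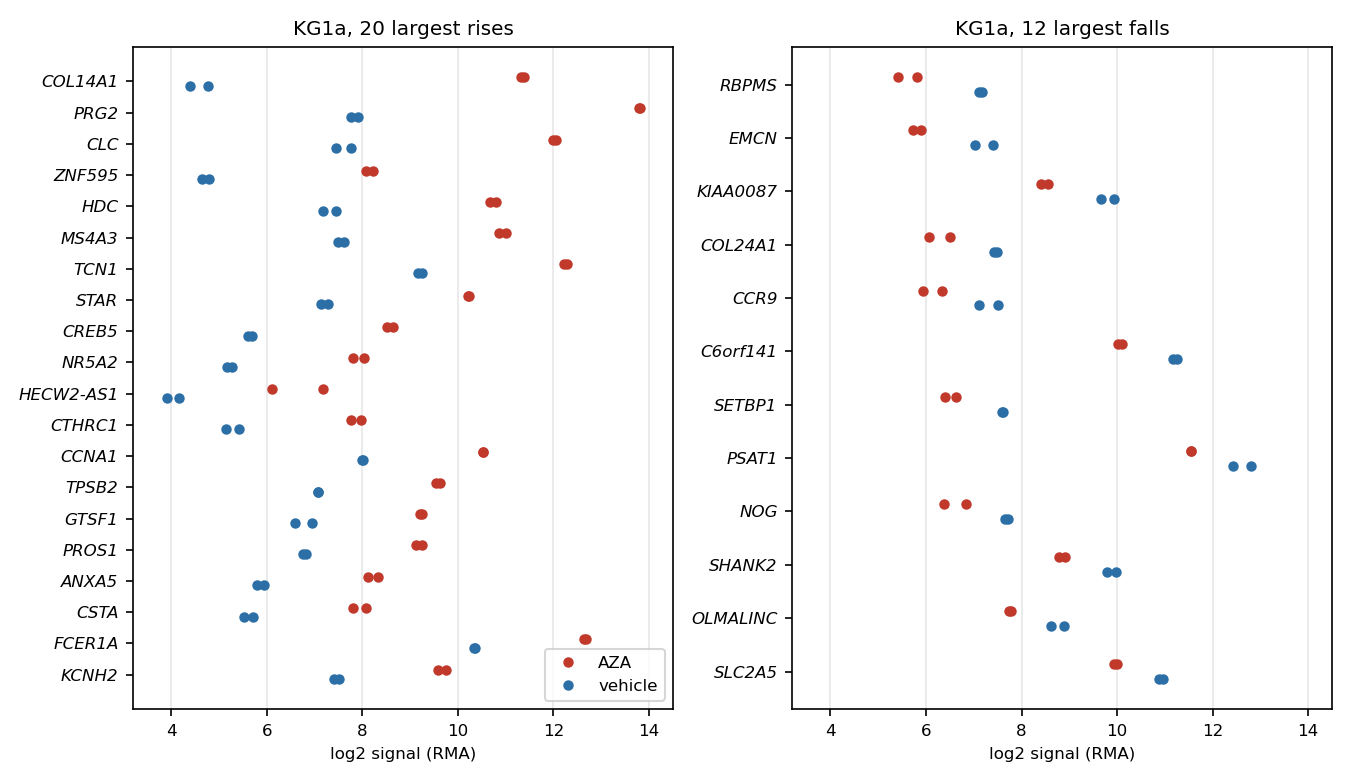
Log2 signal of each KG1a array for the 20 largest rises (left) and the 12 largest falls (right), with AZA in red above vehicle in blue. Only called genes whose arms do not overlap were eligible, so the gap between AZA and vehicle points follows from the choice. PRG2, near 13.8 with AZA, covers one of the widest gaps.

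PRG2, CLC and HDC, genes of eosinophil, basophil and mast cell granules, were among the largest rises, behind COL14A1 (6.77), a collagen gene described further on. Of the granulocyte and mast cell markers, 35 of 45 were tested, and 12 rose and 0 fell, with a median change of 0.25 against 0.02 over all genes. The share that rose in KG1a was 34.3%, against 6.56% of all genes. In the other lines 15 of the 35 rose in AML-193, where 20.7% of all genes rose, 8 in HNT-34 (15.4%) and 19 in HL60 (25.2%). In the test of the KG1a change against the mean change of those lines, 8 of the 35 were higher in KG1a and 10 lower. Of all genes, 4.91% were higher and 4.85% lower in that test. The number that rose was 10 to 13 when any 1 of the 4 KG1a arrays was left out. The mean signal over the 40 members on the array was 8.20 to 8.28 with AZA and 7.46 to 7.52 with vehicle. Divided by cell type, a division made after the values were seen, 9 of 12 eosinophil, basophil and mast cell genes rose, with a median of 1.99, and 3 of 23 neutrophil and promyelocyte genes rose, with a median of 0.10.

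PRG2, which encodes the major basic protein of eosinophil granules, had signals of 13.81 and 13.80 with AZA against 7.77 and 7.91 with vehicle. Its change was 5.96 ± 0.07 (adjusted p = 8.02e-15), the smallest adjusted p among the genes named here. CLC, the gene of the Charcot-Leyden crystal protein of eosinophils and basophils, had 12.06 and 11.99 with AZA against 7.75 and 7.46 with vehicle, a change of 4.42 ± 0.18. RNASE2, the eosinophil-derived neurotoxin gene, had 9.03 and 8.85 with AZA against 7.02 and 7.24 with vehicle, a change of 1.81 ± 0.15. EPX, the eosinophil peroxidase gene, did not pass, with 6.57 and 6.49 with AZA against 6.36 and 6.10 with vehicle. PRG3, a paralogue of PRG2, changed by 0.25 ± 0.12 and did not pass either.

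Mast cell and basophil genes moved alongside. HDC, the enzyme that makes histamine, had 10.67 and 10.81 with AZA against 7.18 and 7.44 with vehicle (change 3.43 ± 0.09). MS4A3, a membrane gene of granulocyte and basophil precursors, had 11.01 and 10.86 with AZA against 7.61 and 7.49 with vehicle (change 3.39 ± 0.08). FCER1A, the IgE-binding chain of the high-affinity IgE receptor, was bright in both arms, at 12.68 and 12.64 with AZA against 10.36 and 10.33 with vehicle. It rose by 2.31 ± 0.08, and FCER1G, the chain that carries its signal, rose by 1.12 ± 0.14. MS4A3 and FCER1G are not in the list of granulocyte and mast cell markers. The tryptase gene TPSB2 had 9.63 and 9.54 with AZA against 7.08 and 7.07 with vehicle, a change of 2.51 ± 0.10. TPSAB1 rose by 2.17 ± 0.11, but the 2 tryptase genes are nearly identical and their probes may share targets. CPA3, the mast cell carboxypeptidase gene, rose by 1.66 ± 0.18 and was already at 11.38 and 11.43 with vehicle. The prostaglandin D2 synthase gene HPGDS had 13.89 and 13.90 with AZA against 13.66 and 13.69 with vehicle, a change of 0.23 ± 0.10 that did not pass.

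The 250 bases upstream of 1 RefSeq transcript start are shown for CLC, MS4A3 and FCER1A because they hold few CG dinucleotides, which is where DNA methylation sits, and the letters of a GATA site. Capitals mark AGATAA or, for the other strand, TTATCT. The sequences are RefSeq's for GRCh38.p14, 5′ to 3′ on the strand of the gene, and PRG2 is not shown. For CLC and MS4A3 the window ends where the gene begins, but for FCER1A it lies inside the gene as RefSeq spans it, chr1:159283575-159308202, so other starts of that gene lie farther upstream.
CLC, chr19:39738030-39738279, minus strand: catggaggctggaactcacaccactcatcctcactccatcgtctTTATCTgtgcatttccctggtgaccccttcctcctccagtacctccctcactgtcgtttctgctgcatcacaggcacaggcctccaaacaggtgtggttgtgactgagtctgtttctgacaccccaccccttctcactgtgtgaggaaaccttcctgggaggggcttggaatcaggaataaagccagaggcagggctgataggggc
MS4A3, chr11:60056415-60056664, plus strand: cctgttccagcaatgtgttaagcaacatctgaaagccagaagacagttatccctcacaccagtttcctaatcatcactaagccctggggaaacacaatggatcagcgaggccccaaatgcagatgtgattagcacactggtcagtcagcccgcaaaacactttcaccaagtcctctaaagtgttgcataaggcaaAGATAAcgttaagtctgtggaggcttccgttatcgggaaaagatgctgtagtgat
FCER1A, chr1:159302086-159302335, plus strand: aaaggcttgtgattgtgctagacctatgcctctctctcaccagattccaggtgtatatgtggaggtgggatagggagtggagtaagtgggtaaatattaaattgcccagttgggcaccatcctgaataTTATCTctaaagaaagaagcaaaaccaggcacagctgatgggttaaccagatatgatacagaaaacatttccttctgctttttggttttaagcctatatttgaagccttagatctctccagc
The windows hold 2 CG dinucleotides for CLC, 5 for MS4A3 and 0 for FCER1A. AGATAA or TTATCT occurs in 9.37% of all 27305 promoter windows and in 5.17% of those of the genes tested. A match is a description of the letters only. The windows of HDC (4 CG dinucleotides), RNASE2 (1) and PRG3 (0) hold neither motif, and those of CPA3 (0) and HPGDS (4) hold a match.

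The following receptor and transcription factor genes were not taken as a group. GATA2 among them was already counted above with the eosinophil, basophil and mast cell genes that rose. KIT, the stem cell factor receptor, had 10.93 and 10.92 with AZA against 9.16 and 8.99 with vehicle (change 1.85 ± 0.11). GATA1, a transcription factor of the erythroid, megakaryocyte, eosinophil and mast cell lineages, had 9.70 and 9.79 with AZA against 8.01 and 8.21 with vehicle (1.64 ± 0.08), and rose by 2.34 in HNT-34. GATA2, its partner in stem and mast cells, rose less, by 0.32 ± 0.07, and did not pass without vehicle array 2 or AZA array 1. CSF2RB, the chain shared by the receptors for IL-3, IL-5 and GM-CSF, had 12.36 and 12.31 with AZA against 11.02 and 10.98 with vehicle (1.34 ± 0.07). IL1RL1, the IL-33 receptor, and PTGDR2, a prostaglandin D2 receptor of eosinophils and basophils, rose by 1.59 ± 0.13 and 1.58 ± 0.13. Both were picked after their values were seen, and the bright probe sets ranged from 0.30 to 2.20 for IL1RL1 and from 0.40 to 1.58 for PTGDR2.

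Of the 23 neutrophil and promyelocyte members, 20 did not pass, and the 3 that rose compare with 6.56% of all genes. MPO, the myeloperoxidase gene, had 7.22 and 6.96 with AZA against 6.94 and 6.55 with vehicle, and ELANE, neutrophil elastase, had 6.23 and 5.59 against 5.34 and 5.18. Neither passed, nor did AZU1 (0.44 ± 0.15), LTF (0.17 ± 0.13) or DEFA4 (-0.02 ± 0.12). CTSG, cathepsin G, had 10.24 on both AZA arrays against 10.12 and 10.35 on the vehicle arrays. The 3 neutrophil list members that rose were S100P (1.27 ± 0.09), the transcription factor gene GFI1 (0.77 ± 0.08) and, near the background, PRTN3 (0.52 ± 0.14), which did not pass without either vehicle array or AZA array 1. TCN1, a vitamin B12 carrier of neutrophil specific granules that is not in the list, had 12.28 and 12.22 with AZA against 9.17 and 9.26 with vehicle (3.04 ± 0.15).

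**Figure D2:**
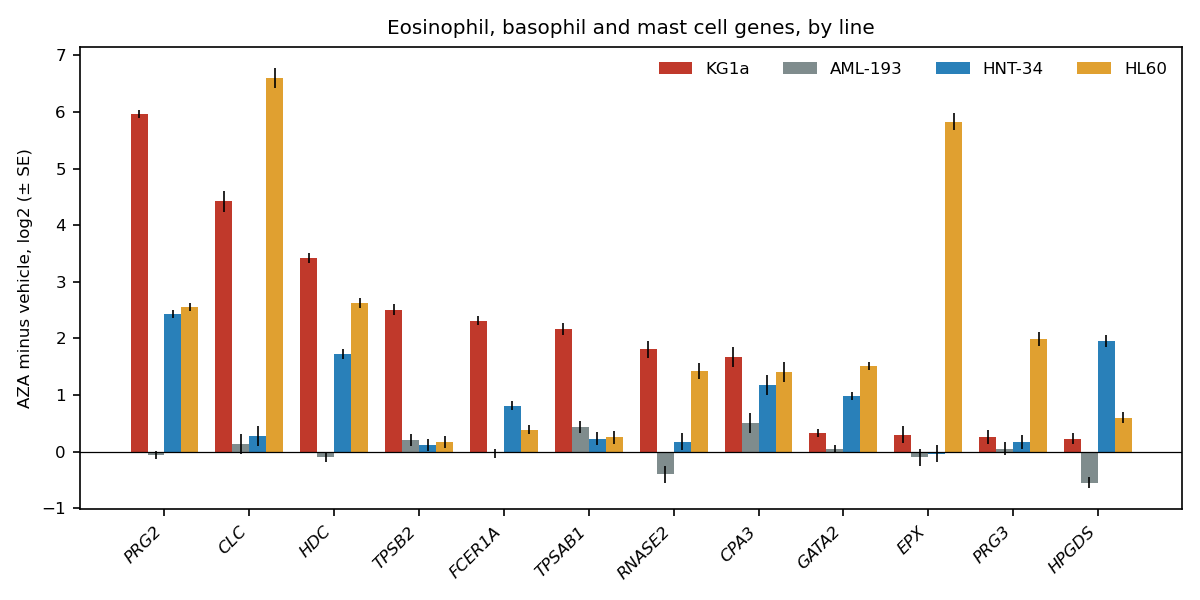
AZA minus vehicle (log2, ± SE of the limma fit, 2 arrays per arm) for the 12 eosinophil, basophil and mast cell genes tested, in KG1a (red) and the 3 other lines. PRG2 (5.96) and TPSB2 (2.51) rose most in KG1a, while CLC (6.60) and EPX (5.83) rose most in HL60.

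The largest rise of all was in COL14A1, a fibril-associated collagen gene, with 11.39 and 11.31 with AZA against 4.39 and 4.77 with vehicle. The change was 6.77 ± 0.15, and its 3 bright probe sets ranged from 1.24 to 6.77. COL14A1 was also called higher in the other lines, by 0.50 in AML-193, 2.52 in HNT-34 and 4.88 in HL60. CSTA, the cysteine protease inhibitor cystatin A, had 8.08 and 7.81 with AZA against 5.71 and 5.52 with vehicle (2.33 ± 0.11). Both were chosen under the rule that the arms do not overlap, and vehicle levels of COL14A1 and CSTA lay below the array median.

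Other genes among the 20 largest rises had varied roles. STAR, which brings cholesterol into mitochondria for steroid synthesis, had 10.22 and 10.24 with AZA against 7.14 and 7.29 with vehicle (3.02 ± 0.19). NR5A2, a nuclear receptor of liver and pancreas, had 8.04 and 7.80 with AZA against 5.27 and 5.17 with vehicle (2.70 ± 0.17). CREB5, a CRE-binding transcription factor, had 8.65 and 8.51 with AZA against 5.69 and 5.61 with vehicle (2.93 ± 0.13), with bright probe sets from 0.37 to 2.93. CCNA1, the cyclin A1 gene of male germ cells, rose by 2.52 ± 0.18, PROS1, the anticoagulant protein S, by 2.40 ± 0.12, and ANXA5, annexin A5, by 2.36 ± 0.10. CTHRC1, a secreted protein with collagen repeats, rose by 2.58 ± 0.14, KCNH2, a potassium channel, by 2.21 ± 0.14, with bright probe sets from 0.76 to 2.21, and the long noncoding RNA HECW2-AS1 by 2.60 ± 0.23.

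ZNF595 encodes a zinc finger protein, and GTSF1 and TDRD9 work in mice in the piRNA pathway that silences transposons in germ cells. ZNF595 had 8.22 and 8.08 with AZA against 4.79 and 4.64 with vehicle (3.44 ± 0.12). GTSF1 had 9.25 and 9.20 with AZA against 6.95 and 6.60 with vehicle (2.46 ± 0.10), and TDRD9 had 9.35 and 9.52 against 8.24 and 7.83 (1.40 ± 0.15). Their upstream windows are printed to show how CG content differs among genes that rose, with each CG in capitals.
ZNF595, chr4:53071-53320, plus strand: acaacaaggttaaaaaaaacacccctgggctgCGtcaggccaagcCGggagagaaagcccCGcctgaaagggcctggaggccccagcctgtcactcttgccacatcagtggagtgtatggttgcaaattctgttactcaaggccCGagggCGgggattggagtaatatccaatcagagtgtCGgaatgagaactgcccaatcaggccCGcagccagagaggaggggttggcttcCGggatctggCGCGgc
GTSF1, chr12:54473603-54473852, minus strand: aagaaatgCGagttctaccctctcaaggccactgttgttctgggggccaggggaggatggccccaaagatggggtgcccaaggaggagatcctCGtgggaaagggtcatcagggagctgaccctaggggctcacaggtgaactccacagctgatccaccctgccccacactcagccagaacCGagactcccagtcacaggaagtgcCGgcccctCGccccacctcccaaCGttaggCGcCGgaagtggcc
TDRD9, chr14:103928206-103928455, plus strand: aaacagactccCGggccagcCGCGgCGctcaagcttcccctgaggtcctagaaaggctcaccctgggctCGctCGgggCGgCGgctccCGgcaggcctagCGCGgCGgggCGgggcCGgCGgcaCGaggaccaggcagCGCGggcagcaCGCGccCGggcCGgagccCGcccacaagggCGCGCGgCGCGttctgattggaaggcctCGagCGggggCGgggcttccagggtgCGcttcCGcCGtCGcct
The windows hold 10 CG dinucleotides for ZNF595, 8 for GTSF1 and 35 for TDRD9, against a median of 20 over the genes tested.

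Of the cancer-testis and germline genes, 36 of 126 were tested, and 5 rose (13.9%, against 6.56% of all genes) and 1 fell, with a median of 0.09. The counts in the other lines were 12 higher in AML-193, where 20.7% of all genes were higher, 15 in HNT-34 (15.4% of all genes) and 17 in HL60 (25.2%). In the test of the difference, 2 of the 36 had a higher and 11 a lower change in KG1a than the mean of these lines. The shares of all genes were 4.91% and 4.85%. Besides GTSF1 and TDRD9, MAGEB2 had 6.15 and 6.05 with AZA against 4.93 and 4.82 with vehicle (1.22 ± 0.24), and CTAG2, the LAGE-1 antigen, rose by 0.58 ± 0.11. PAGE5 passed at 0.70 ± 0.19 but did not pass without vehicle array 1 or without either AZA array. PGK2, the testis phosphoglycerate kinase, fell by 0.68 on the log2 scale. GCNA, a germ cell acidic protein gene, rose by 1.33 ± 0.13 in KG1a and by 2.56, 3.98 and 4.07 in AML-193, HNT-34 and HL60.

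**Figure D3:**
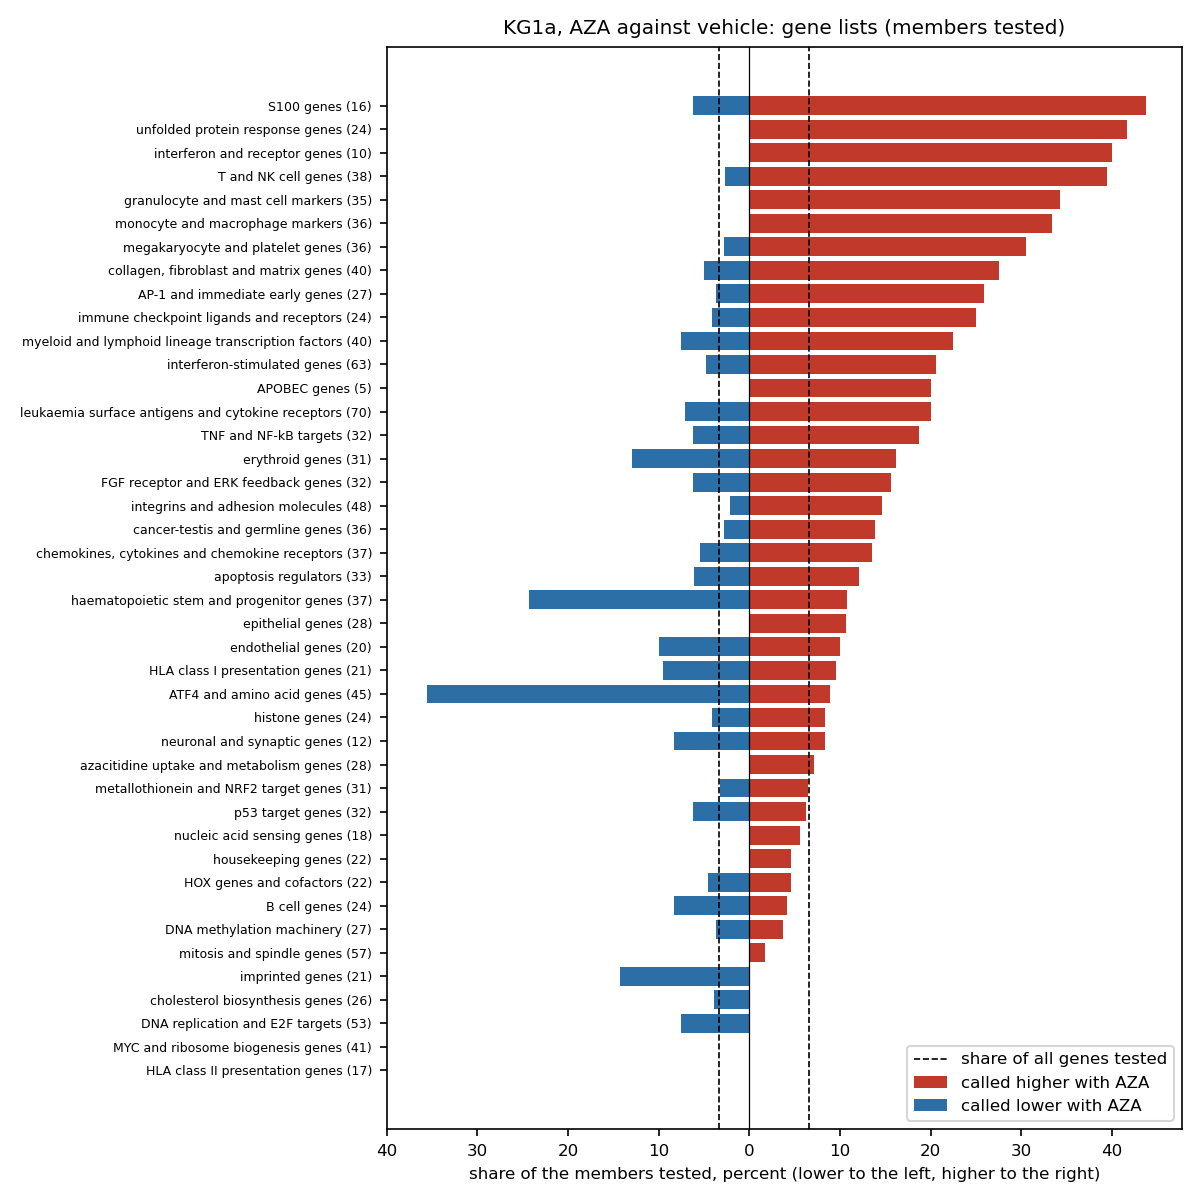
Percent of each list's tested members called higher (red, to the right) or lower (blue, to the left) with AZA in KG1a, for 42 lists with the number of members tested in brackets. Dashed lines mark 6.56% higher and 3.36% lower, the shares of all genes tested. The ATF4 and amino acid genes extend farthest to the left.

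T and NK cell genes rose in KG1a at 39.5% of the members tested, against 6.56% of all genes. Of 57 such genes, 38 were tested, 15 rose and 1 fell, with a median of 0.34, and 10 to 14 rose when any 1 KG1a array was left out. In the other lines 13 of the 38 rose in AML-193, where 20.7% of all genes rose, 18 in HNT-34 (15.4%) and 11 in HL60 (25.2%). The KG1a change exceeded the mean of these lines for 7 of the 38 and lay below it for 3, against 4.91% and 4.85% of all genes. CD3D, a chain of the T cell receptor complex, had 9.55 and 9.52 with AZA against 7.37 and 7.45 with vehicle (2.13 ± 0.08). KLRB1, the NK and T cell receptor CD161, had 10.54 and 10.33 with AZA against 8.49 and 8.69 with vehicle (1.84 ± 0.14). GZMA, the protease granzyme A of cytotoxic granules, had 7.78 and 7.92 with AZA against 6.62 and 6.50 with vehicle (1.29 ± 0.09). In all 3, every AZA array lay more than 1 unit above every vehicle array.

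LEF1, a Wnt pathway transcription factor of early T cells, rose by 1.18 ± 0.14 and the T cell adaptor gene LAT by 0.97 ± 0.08. LAT rose more in HNT-34, by 3.61, and in HL60, by 1.32, and fell by 0.28 on the log2 scale in AML-193. Among genes picked after their values were seen, CST7, the cystatin F of cytotoxic cells, rose by 1.54 ± 0.10, LAX1, a membrane adaptor of lymphocytes, by 1.21 ± 0.13, and FYN, a T cell receptor kinase, by 1.13 ± 0.15. The FYN change ranged from 0.47 to 1.31 under the alternatives. From vehicle to AZA, FYN went from 12.54 to 11.40 in AML-193, from 5.48 to 6.03 in HNT-34 and from 10.49 to 9.33 in HL60. The rises of CD3D, KLRB1, GZMA and LEF1 exceeded the mean change of the other lines by 1.84, 1.77, 1.38 and 1.11 (limma, largest adjusted p 0.00063, for LEF1). These 4 are named for being larger in KG1a, and in the other lines none of them moved by more than 0.33. The mean signal over the 49 T and NK genes on the array was 7.95 to 7.96 with AZA and 7.57 to 7.66 with vehicle, and 31 of them exceeded the array median on each AZA array against 26 and 29 on the vehicle arrays.

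Monocyte, S100 and platelet genes rose in part. Of 36 monocyte and macrophage markers tested, 12 rose (33.3%, against 6.56% of all genes) and 0 fell, with a median of 0.14. In AML-193, where 20.7% of all genes rose, 28 of them rose, with a median of 1.13. TYROBP, the adaptor that carries signals of activating receptors, had 10.84 on both AZA arrays against 8.64 and 8.75 with vehicle (2.14 ± 0.08). SPP1, osteopontin, rose by 1.20 ± 0.15 and FCGR2A, an IgG receptor, by 1.02 ± 0.11, while CD14 and CD163 were below the array median in both arms. Of 16 S100 genes tested, 7 rose and 1 fell: S100A8 rose by 1.27 ± 0.19, S100A6 by 1.17 ± 0.16, S100A16 by 1.12 ± 0.09 and S100B by 1.01 ± 0.15. The monocyte count was 10 to 11 and the S100 count 6 to 7 with any 1 KG1a array left out.

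Of 36 megakaryocyte and platelet genes tested, 11 rose and 1 fell, with a median of 0.22, and 9 rose with any 1 KG1a array left out. The share that rose in KG1a was 30.6%, against 6.56% of all genes. The other lines had 11 rises in AML-193, where 20.7% of all genes rose, 26 in HNT-34 (15.4%) and 9 in HL60 (25.2%). ITGA2B, the platelet integrin chain CD41, had 11.65 and 11.81 with AZA against 9.96 and 9.66 with vehicle (1.92 ± 0.13). SELP, the adhesion molecule P-selectin of platelet granules, had 10.82 on both AZA arrays against 9.49 and 9.61 with vehicle (1.26 ± 0.10). CLEC1B, the podoplanin receptor, rose by 1.56 ± 0.13, CAVIN2 by 1.12 ± 0.12, and PPBP, a platelet chemokine, by 1.16 ± 0.19. PPBP rose by 4.86 in AML-193, 5.56 in HNT-34 and 1.34 in HL60, and the KG1a change was 2.76 below the mean of these. Of 31 erythroid genes, 5 rose and 4 fell: GATA1 and the carbonic anhydrase genes CA2 (1.41 ± 0.13) and CA1 (0.94 ± 0.14) were among the rises. RHAG, the Rh-associated glycoprotein of red cells, was very bright in both arms, at 13.23 and 13.29 with AZA against 13.80 and 14.08 with vehicle. Its fall of 0.68 on the log2 scale did not pass without vehicle array 2 or without either AZA array, and its bright probe sets ranged from -0.68 to -0.13.

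Surface and signalling genes were mixed. Of 70 leukaemia surface antigens and cytokine receptors tested, 14 rose and 5 fell, with a median of 0.08. CD48, a ligand of NK cell receptors, had 11.16 and 11.22 with AZA against 10.08 and 9.93 with vehicle (1.18 ± 0.10), and changed by 0.32 in AML-193, -0.84 in HNT-34 and -1.18 in HL60. CD200, an inhibitory ligand, had 6.53 and 6.26 with AZA against 7.31 and 7.38 with vehicle and fell by 0.95 on the log2 scale. CXCR4, the chemokine receptor that holds cells in the marrow, had 10.62 and 10.63 with AZA against 8.93 and 9.21 with vehicle (1.56 ± 0.16). Its KG1a change exceeded the mean of the other lines by 1.58 (adjusted p = 8.44e-05). ACKR3, a scavenger receptor for CXCL12, the ligand of CXCR4, fell by 0.89 on the log2 scale, and the fractalkine receptor gene CX3CR1 rose by 1.31 ± 0.17.

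Of 24 immune checkpoint genes tested, 6 rose and 1 fell, and 3 to 4 rose with any 1 KG1a array left out. CD86, a costimulatory ligand, had 8.23 and 8.16 with AZA against 6.88 and 6.84 with vehicle (1.34 ± 0.13, bright probe sets from 0.61), and the T cell costimulator ICOS rose by 1.08 ± 0.11. Of 40 collagen, fibroblast and matrix genes tested, 11 rose and 2 fell, with 7 to 9 rises when any 1 KG1a array was left out. VIM, the intermediate filament vimentin, had 10.84 and 10.78 with AZA against 9.15 and 9.37 with vehicle (1.55 ± 0.14). TIMP1, a metalloproteinase inhibitor, rose by 1.20 ± 0.12 and ANXA2 by 0.94 ± 0.12. COL1A1, the main collagen of fibroblasts, was not called, at 9.58 and 9.72 with AZA and 9.43 and 9.62 with vehicle. Of 32 FGF receptor and ERK feedback genes, 5 rose and 2 fell, with FGFR3 at 1.17 ± 0.21 and the adaptor GAB2 at 1.15 ± 0.10.

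Interferon-stimulated genes rose in a minority, though at 20.6% of the members tested, against 6.56% of all genes. Of 63 tested, 13 rose and 3 fell, with a median of 0.03, and 10 to 11 rose with any 1 KG1a array left out. CXCL10, a chemokine, had 8.71 and 8.57 with AZA against 7.32 and 7.58 with vehicle (1.19 ± 0.11). ISG15, a ubiquitin-like modifier, had 11.79 and 11.75 with AZA against 10.70 and 10.72 with vehicle (1.06 ± 0.08). IFI6 rose by 1.10 ± 0.09, IFI27 by 0.96 ± 0.13 and IRF7, a factor that drives interferon genes, by 0.84 ± 0.07. In the other lines, 3 of the 63 rose in AML-193, where 20.7% of all genes rose, 23 in HNT-34 (15.4%) and 24 in HL60 (25.2%). Genes of HLA class II, 17 tested, had 0 rises and 0 falls. At an unadjusted limma p under 0.05, 3 of the 17 passed, against 3197 of all 14049 genes tested. Of 21 HLA class I presentation genes, 2 rose and 2 fell, 9.52% each, against 6.56% and 3.36% of all genes. APOBEC3B, a cytidine deaminase that edits DNA, had 7.93 and 7.68 with AZA against 5.96 and 5.88 with vehicle (1.88 ± 0.09), the 1 call among 5 APOBEC genes tested.

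Genes of amino acid supply and of protein folding went opposite ways. Of 45 ATF4 and amino acid genes tested, 16 fell and 4 rose, with a median of -0.20, and 11 to 15 fell with any 1 KG1a array left out. This list holds targets of the transcription factor ATF4, which is active when amino acids are short. PSAT1, the serine synthesis aminotransferase, had 11.55 and 11.54 with AZA against 12.43 and 12.81 with vehicle and fell by 1.07 on the log2 scale. PHGDH, the first enzyme of that pathway, had 11.87 and 11.98 with AZA against 12.79 and 12.81 with vehicle and fell by 0.87 on the log2 scale. CHAC1, which degrades glutathione, fell by 0.87 on the log2 scale, SLC7A11, the cystine transporter, by 0.70, and ASNS, asparagine synthetase, by 0.52. CBS, cystathionine beta-synthase, fell by 0.84 on the log2 scale, though its 3 bright probe sets ranged from -0.84 to 0.05. The rises were in ATF5 (0.73 ± 0.09), whose bright probe sets ranged from -0.05 to 0.73, DDIT3 (0.44 ± 0.07), which encodes CHOP, the amino acid transporter gene SLC1A4 and TRIB3. SLC1A4 did not pass without AZA array 1. TRIB3, a pseudokinase, had 10.23 and 10.22 with AZA against 9.80 and 9.79 with vehicle (0.43 ± 0.10), and it did not pass when any 1 KG1a array was left out.

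The fall was smaller in KG1a than in the other lines. There, 36 of the 45 fell in AML-193, where 20.2% of all genes fell, 36 in HNT-34 (14.8%) and 39 in HL60 (16%). The medians were -0.67, -1.14 and -0.73. For 35 of the 45 genes the KG1a change lay above the mean change of the other lines in the test of that difference, and for 1, GDF15, it lay below, where 4.91% and 4.85% of all genes did so. TRIB3 changed by -1.31 in AML-193, -2.51 in HNT-34 and -1.01 in HL60, a difference of 2.04 (adjusted p = 3.57e-07). DDIT3 changed by -0.66, -1.41 and -0.60 in the same lines, a difference of 1.33. KG1a began lower for both: with vehicle TRIB3 was at 9.80, against 12.64, 12.96 and 12.52 in these lines. DDIT3 was at 8.58 against 9.82, 10.92 and 10.28. PSAT1 with vehicle was higher in KG1a (12.62) than in AML-193 (6.75) and HNT-34 (7.40), but lower than in HL60 (13.10). Whether the starting level bears on the smaller fall was not tested. For PSAT1 the lines disagreed, at 0.74, 0.13 and -3.61, and its difference from their mean, -0.16, did not pass.

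**Figure D4:**
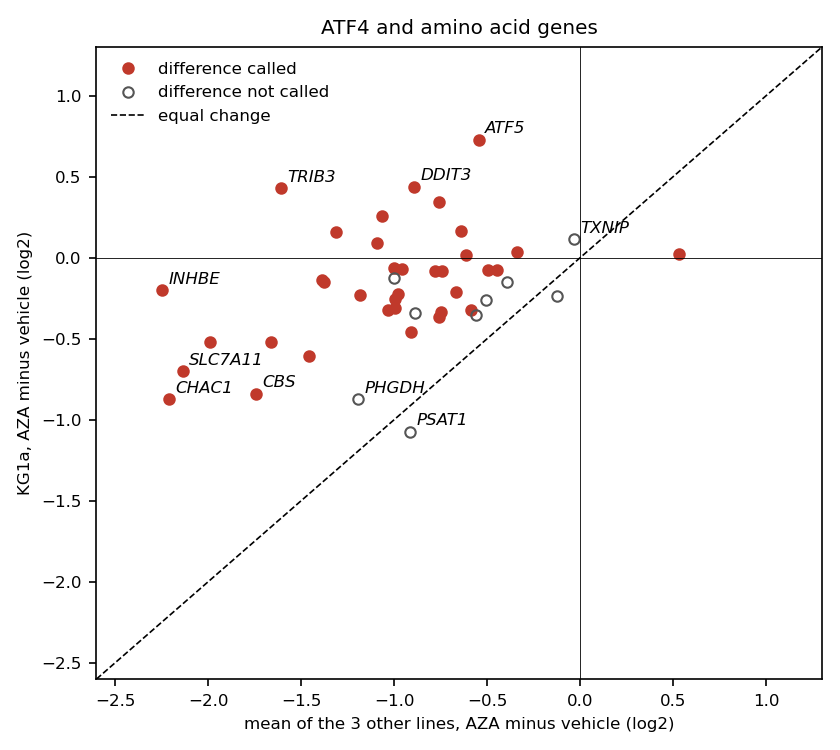
Change with AZA (log2) of the 45 ATF4 and amino acid genes in KG1a (vertical) against the mean change in the 3 other lines (horizontal), with filled points where the difference was called. Most points lie above the dashed line of equal change, TRIB3, DDIT3 and ATF5 above 0 in KG1a, and PSAT1 just below the line.

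Of 24 unfolded protein response genes tested, 10 rose and 0 fell, with a median of 0.26, and 4 to 7 rose with any 1 KG1a array left out. The share that rose in KG1a was 41.7%, against 6.56% of all genes. In the other lines 13 of the 24 rose in AML-193, 5 in HNT-34 and 13 in HL60, with medians of 0.25, 0.07 and 0.40. Of all genes, 20.7%, 15.4% and 25.2% rose in the same lines. The KG1a change exceeded the mean of these lines for 6 of the 24 and lay below it for 2, against 4.91% and 4.85% of all genes. ERN1, the endoplasmic reticulum stress sensor IRE1, had 9.33 and 9.27 with AZA against 8.22 and 8.05 with vehicle (1.17 ± 0.08), and changed by 0.21, 0.04 and 0.03 in AML-193, HNT-34 and HL60. Its bright probe sets ranged from 0.24 to 1.17 in KG1a. CREB3L2, a membrane-bound transcription factor, rose by 0.60 ± 0.09 (bright probe sets from 0.28) and DNAJC3, a co-chaperone, by 0.39 ± 0.07. HSPA5, the chaperone BiP, had 12.77 and 12.79 with AZA against 12.34 and 12.46 with vehicle (0.38 ± 0.07), with a second bright probe set at -0.06.

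The falls were smaller than the rises. RBPMS, an RNA-binding protein gene, had 5.82 and 5.42 with AZA against 7.10 and 7.18 with vehicle and fell by 1.52 on the log2 scale. EMCN, the sialomucin endomucin of endothelium and stem cells, had 5.73 and 5.89 with AZA against 7.02 and 7.40 with vehicle and fell by 1.40 on the log2 scale. KIAA0087, a noncoding RNA gene, had 8.55 and 8.41 with AZA against 9.93 and 9.66 with vehicle and fell by 1.32 on the log2 scale. These 3 also fell in HNT-34, by 1.92, 2.02 and 3.02 on the log2 scale. COL24A1, a fibrillar collagen, fell by 1.17 on the log2 scale, CCR9, a gut-homing chemokine receptor, by 1.17, C6orf141 by 1.15, SETBP1, a SET-binding protein, by 1.08, NOG, the BMP antagonist noggin, by 1.07, SHANK2, a synaptic scaffold with bright probe sets from -1.40 to -0.63, by 1.03, OLMALINC by 0.99, and SLC2A5, the fructose transporter, by 0.96.

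Of 37 haematopoietic stem and progenitor genes tested, 9 fell and 4 rose, with a median of -0.10, but only 2 to 6 fell with any 1 KG1a array left out. BCL11A, a repressor of fetal globin and a stem and lymphoid factor, had 11.03 and 11.06 with AZA against 11.85 and 11.71 with vehicle and fell by 0.73 on the log2 scale. NPR3, HOPX and MN1 were called at -0.88, -0.68 and -0.66, and each lost its call without either AZA array. CD34 changed by less than the spread between its vehicle arrays. Of the 37 genes, 6 fell in AML-193, where 20.2% of all genes fell, 21 in HNT-34 (14.8%) and 9 in HL60 (16%).

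Of 27 genes of the DNA methylation machinery tested, 1 rose and 1 fell after the 4 drug-free days, where 9.92% of all genes were called. DNMT1, the maintenance methyltransferase, had 11.48 and 11.54 with AZA against 11.73 and 11.54 with vehicle (-0.13 ± 0.10, adjusted p = 0.476). DNMT3A, a de novo methyltransferase, had 7.76 and 7.77 with AZA against 7.62 and 7.66 with vehicle, and DNMT3B had 11.46 and 11.47 against 11.58 and 11.41. UHRF1, which brings DNMT1 to replicated DNA, changed by -0.21 ± 0.08 and did not pass. TET1, a 5-methylcytosine oxidase, had 8.81 and 8.77 with AZA against 9.28 and 9.20 with vehicle and fell by 0.45 on the log2 scale, a call lost without vehicle array 1 or either AZA array. TET2 (0.13 ± 0.15) and TET3 (-0.20 ± 0.11) did not pass, and GADD45B, a stress gene tied to demethylation, rose by 0.43 ± 0.07.

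Of 57 mitosis and spindle genes 1 rose, and of 53 DNA replication and E2F targets 4 fell, RFC5, UNG, CDC45 and DTL, by at most 0.41 on the log2 scale, with bright probe sets of RFC5 from -0.41 to 0.02. The last count was 0 to 2 with any 1 KG1a array left out. Of 32 p53 target genes, 2 rose and 2 fell, 6.25% each, against 6.56% and 3.36% of all genes. CDKN1A, the cell cycle inhibitor p21, had 9.16 and 9.29 with AZA against 8.26 and 8.41 with vehicle (0.89 ± 0.14), and the inhibitor gene CDKN2A, picked after its values were seen, rose by 1.61 ± 0.09. Of 41 MYC and ribosome biogenesis genes 0 were called. Of them 1 had an unadjusted limma p under 0.05, against 3197 of all 14049 genes tested. Of 28 azacitidine uptake and metabolism genes, the exporter ABCC4 (0.80 ± 0.10) and SAMHD1 (0.76 ± 0.09, bright probe sets from 0.33 to 0.99), which degrades deoxynucleotides, rose. That is 7.14% of the list, near the 6.56% of all genes. Of 22 housekeeping genes, REEP5 was the 1 call.

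Genes that rose at least 2-fold had fewer CG dinucleotides upstream of their start than all genes tested, and so did the few that fell at least 2-fold. RefSeq windows of 250 bases were matched to 11220 of the 14049 genes by gene. At most 5 CG dinucleotides were found in 49 of the 106 strongest risers with a window (46.2%), against 22.8% of all genes that rose, 14.6% of those that fell and 14.3% of all genes tested. Of the genes that fell at least 2-fold, 7 had a window and 3 of these held at most 5 (42.9%), with a median of 11. Of the 12 largest falls 9 had a window, and 4 of these held at most 5. The median number was 7 in the strongest risers, 19 in all that rose, 20 in those that fell and 20 in all tested. The motif AGATAA on either strand was in 18 of the 106 strongest risers, 8.70% of all that rose, 3.65% of those that fell and 5.17% of all tested. The limit of 5 and the motif were chosen after data were seen, and the shares are descriptions without a test.

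Genes of low signal have fewer upstream CG dinucleotides on this array, and the strongest risers were often of low signal. In the lowest tertile of vehicle signal, windows with at most 5 CG dinucleotides made up 50.8% of 63 strong risers and 28.8% of all 3411 genes. In the middle tertile they made up 38.2% of 34 strong risers and 9.53% of 3850 genes, and in the highest tertile 44.4% of 9 and 6.47% of 3959. DNA methylation itself was not analysed here.

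**Figure D5:**
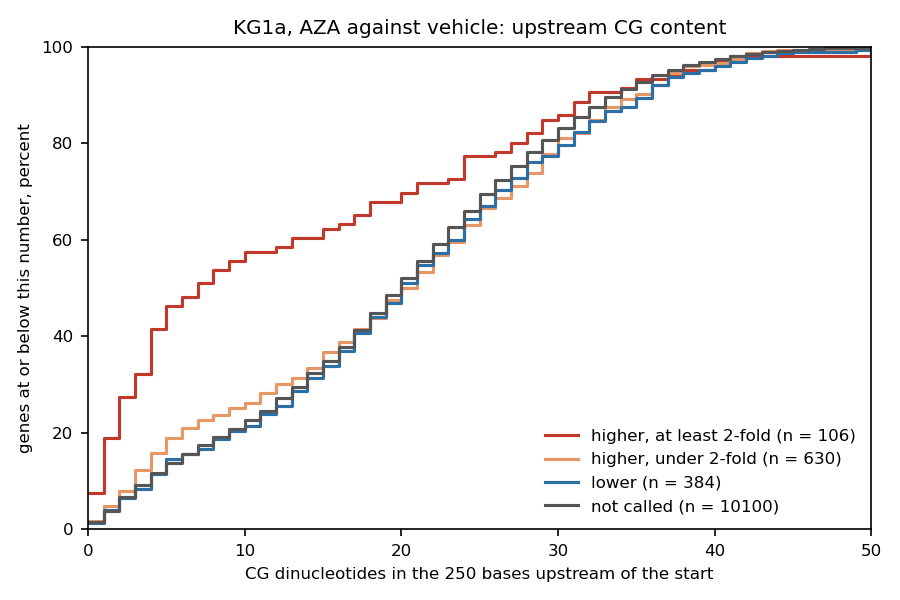
Cumulative percent of genes (vertical) by the number of CG dinucleotides in the 250 bases upstream of the start (horizontal), for genes called higher at least 2-fold, higher by less, lower and not called with AZA in KG1a. The curve of the 106 strongest risers (red) lies above the others at low numbers and reaches 46.2% at 5.

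Set against the other lines, KG1a responded with fewer calls. At the same threshold 20.7% of genes were higher and 20.2% lower in AML-193, 15.4% and 14.8% in HNT-34, and 25.2% and 16% in HL60. Of the 921 genes higher in KG1a, 198 were called higher in 0 other lines, 328 in 1, 295 in 2 and 100 in all 3, and for the 132 that rose at least 2-fold the numbers were 18, 47, 43 and 24. Of the 921, 259 were called lower in at least 1 other line, and 118 were called higher in 0 other lines and lower in 0. HNT-34 shared 449, which is 48.8% of the KG1a genes and 20.7% of the 2165 of HNT-34. HL60 shared 423 (45.9% of the KG1a genes, 11.9% of its own) and AML-193 shared 346 (37.6% and 11.9%).

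In the test of the KG1a change against the mean change of the other lines, 690 genes were higher (4.91%) and 681 lower (4.85%), 1371 in all (9.76%). Without AZA array 1 of KG1a these were 367 and 351, and without its AZA array 2 they were 395 and 327. The highest differences were in PRG2 (4.33), COL14A1 (4.14), MS4A3 (2.80), CSTA (2.67), TCN1 (2.48) and TPSB2 (2.35). Some of these were already high elsewhere with vehicle: PRG2 at 12.59 in HL60, and CSTA at 14.29 in AML-193 and 14.05 in HL60. MS4A3 was at 14.10 in AML-193 and 12.86 in HL60. COL14A1, TCN1 and TPSB2 with vehicle lay below the array median in all 3 other lines. COL14A1 nevertheless rose in each of them, by 0.50 in AML-193, 2.52 in HNT-34 and 4.88 in HL60. Whether a high starting level limited the rises was not tested. OSBPL6, a lipid-binding protein, rose by 1.50 ± 0.12 in KG1a, against changes of -0.97, 0.30 and -1.56 in AML-193, HNT-34 and HL60. CSTA changed by -0.41, -0.19 and -0.42 in the same order. Of the 8 lowest differences, PPBP and GCNA rose in KG1a by less than the mean of the other lines, RHAG fell, and 5 did not pass in KG1a. DCAF4L1 changed by 0.36 ± 0.13 in KG1a and by 3.60, 1.97 and 4.55 elsewhere, and the cancer-testis gene MAGEA4 by 0.14 ± 0.12 in KG1a and by 5.21 in HNT-34. TKTL1, a transketolase-like gene, changed by 0.15 ± 0.16 in KG1a and by 6.11 in HL60, and S100A12 by -0.04 ± 0.12 in KG1a and by 3.23 in AML-193.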

How the data were processed

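RNA of KG1a and 3 other lines was hybridised to Affymetrix U133 Plus 2.0 arrays, 2 per group and 16 in all. The authors deposited log2 signals per probe set, and the submitters' processing notes name affy and RMA. Versions are not given in the sources used here, and the log base was read from the values, which run from 3.26 to 15.3. The arrays give no counts, so their number limits the precision. Of 54675 probe sets, 41097 had 1 gene symbol in the platform annotation, 1801 several and 11777 none, and 62 were controls. Each of 19775 genes was represented by its brightest probe set on average, and probe sets of 1 gene can differ. Genes at or above the array median (6.73) on at least 2 arrays were tested, which left 14049.

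The fit was made in limma (3.58.1, R 4.3.3) over all 8 groups, each with its own mean, 8 residual and 4.80 prior degrees of freedom, and Benjamini-Hochberg adjustment at 0.05. The contrasts were AZA minus vehicle in KG1a, and that change minus the mean change of the 3 other lines. The fit was tested on simulated data. Alternatives were no filter, the mean of all probe sets, requantiling, median centring, an intensity trend, a 3′ minus 5′ covariate, array weights, KG1a alone, stricter thresholds and leaving out each array. Stricter thresholds were applied to the counts of genes called, so calls kept under every alternative are calls at the same threshold.

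Named genes are the 20 largest rises and 12 largest falls among called genes whose arms do not overlap, the 8 highest and 8 lowest differences from the other lines, the 6 or fewer called members that moved most in each list, and DNMT1, DNMT3A, DNMT3B, UHRF1 and TET1 to TET3. List markers that did not pass are given by value. PTGDR2, IL1RL1, CDKN2A, CST7, LAX1, FYN, CPA3, RNASE2, GATA2, TRIB3, DDIT3, ASNS, SLC1A4, PRTN3, CA1 and GDF15 were picked after their values were seen, where the rule does not name them. The comparison and the 42 lists, 1692 genes written from general knowledge, were chosen with earlier results of these data known. Promoters are RefSeq's (GRCh38.p14), matched by gene.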

Additional observations from a re-analysis of the deposited data

Results flagged for a closer look

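The change with AZA in KG1a differed from the mean change of the 3 other lines for 1371 genes in the limma test of that difference, 690 with a higher and 681 with a lower change in KG1a. The 8 highest differences were PRG2 (4.33), COL14A1 (4.14), MS4A3 (2.80), CSTA (2.67), TCN1 (2.48), TPSB2 (2.35), OSBPL6 (2.25) and CTHRC1 (2.18). In KG1a both AZA arrays of each of these 8 lay above both vehicle arrays, but the arms did not overlap for 52.3% of all genes. With vehicle, PRG2 was already bright in HL60 (12.59), and CSTA in AML-193 (14.29) and HL60 (14.05). MS4A3 with vehicle was bright in AML-193 (14.10) and HL60 (12.86) too. COL14A1 also rose in the other lines, by 0.50 in AML-193, 2.52 in HNT-34 and 4.88 in HL60. The 8 lowest differences were DCAF4L1 (-3.01), PPBP (-2.76), GCNA (-2.21), TKTL1 (-2.08), S100A12 (-1.91), MAGEA4 (-1.91), RHAG (-1.88) and GPAT2 (-1.78). PPBP and GCNA rose in KG1a, RHAG fell, and the remaining 5 did not pass there. RHAG rose by 3.72 in HNT-34 and GPAT2 by 3.02 in HL60. All 16 differences kept their call and direction under every alternative run.

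Probe sets with no gene symbol or with several were outside the comparisons above. Fitted with the rest of the probe sets, 117 of them were higher and 82 lower with AZA in KG1a. Of 1279 with several symbols 48 were higher and 20 lower, and of 4490 with no symbol 69 were higher and 62 lower. This count was added after the data were seen.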

How the results depend on the processing

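With 1393 genes called in KG1a (921 higher, 472 lower), a fit on the 4 KG1a arrays alone called 844 (608 and 236), which has fewer degrees of freedom. An adjusted p under 0.01 left 737 (537 and 200), and a 2-fold minimum left 142 (132 and 10). Leaving out each KG1a array in turn gave 688 to 1238 genes in all, 496 to 798 higher and 178 to 440 lower, lowest without an AZA array. The 1371 genes with a difference from the other lines became 718 to 1545 when each of the 16 arrays was left out, 367 to 783 higher and 327 to 762 lower, and the lows again came without a KG1a AZA array. Other alternatives kept both counts within 1.5 times. No paired analysis was possible because the labels give no replicate numbers.

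The changes of 4 genes that did not pass turned their sign under an alternative, and the cause was not tested. DNMT3B ranged from -0.117 to 0.0563 and TET3 from -0.414 to 0.0235, both positive without vehicle array 1 of KG1a. S100A12 ranged from -0.144 to 0.0714, positive without vehicle array 2 and, at 0.0395, without AZA array 1. GDF15 ranged from -0.0227, without vehicle array 2, to 0.0731, and was -0.0023 after median centring. Of 197 named genes that were called, 135 kept their call under every alternative and 141 under every left-out array. Of 1008 list counts under alternatives, 207 moved by more than 1.5 times, and of 504 list medians 123 moved by more than the spread between arrays. The share of the strongest risers with at most 5 upstream CG dinucleotides moved under 0 of 12 alternatives. With 2 arrays per arm and flattened signals near the background, small changes of dim genes can be missed.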
